A study of Mus musculus with 6 samples.

Results

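The genes described here encode subunits of the Polycomb repressive complexes: Ezh1, Ezh2, Suz12, Eed, Jarid2, Mtf2, Ring1, Rnf2, Bmi1 and Cbx2. They are 10 of the 21770 protein-coding genes of the annotation used (GENCODE M39, GRCm39), and the list was set by gene name, with earlier results of these data known. Their rows are those of 4 annotated lists in which the nearest transcript, or the transcript of the annotation class, belongs to one of the 10 genes. By that rule 11 of 7861 TAF4b replicate 1 peaks, 1 of 848 TAF4b replicate 2 peaks, 15 of 64891 H3K4me3 replicate 1 regions and 0 of 1730 H3K4me3 replicate 2 regions belong to them, 27 rows in all. Of the 10 genes, 9 had at least 1 row, and Ring1 had none.

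The lists come from CUT&RUN, which cuts out the DNA beside an antibody-bound protein or histone mark, on male germ cells (prospermatogonia) sorted at E16.5, late in gestation. All samples were Taf4b-wildtype, with C57BL/6 as the labelled strain, and the cells came from matings of mice homozygous for an Oct4-EGFP transgene (B6;129S4-Pou5f1tm2Jae/J), sorted alive and by green fluorescence. The 6 samples are 2 replicates each of an antibody against TAF4b, a germ cell enriched subunit of the general transcription factor TFIID, of an antibody against H3K4me3, a histone mark of active and poised promoters, and of IgG, which was not analysed here. The labels do not say how many embryos were pooled or whether replicates came from separate embryos, so that a p-value measures only the spread between these libraries, which may be technical.

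Polycomb proteins keep genes silent through 2 complexes, PRC2 and PRC1. PRC2 holds a methyltransferase, EZH1 or EZH2, with EED and SUZ12, and methylates lysine 27 of histone H3, while JARID2 and MTF2 are accessory subunits that help bring it to CpG-rich DNA. PRC1 holds a ubiquitin ligase, RING1 or RNF2 (also called RING1B), with a PCGF protein such as BMI1, and its CBX subunits, CBX2 among them, read the methylated histone. In fetal germ cells these complexes are known for holding developmental regulators silent, often at promoters that also carry H3K4me3. The present lists say where TAF4b and H3K4me3 were found at the genes for these proteins, and hold no measure of their RNA or of Polycomb binding.

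The depth of each library is unknown, since the lists give no read totals. The replicate 2 lists are far shorter, and a gene missing from them may only be below their threshold. Peak scores are the authors' values with a scaling that is not stated, so they are used here only as ranks within 1 list (rank 1 is the highest score, and equal scores share a rank). As a check of the labelled cell type, TAF4b replicate 1 held promoter peaks at 3 of 4 germ cell markers (Ddx4, Dazl and Dnd1, not Pou5f1), and at 0 of 4 Sertoli, 0 of 4 Leydig and 0 of 2 endothelial markers, beside 22.7% of all protein-coding genes. TAF4b replicate 2 held 0 of 4 germ cell markers and none of the others, beside 3.14% of all protein-coding genes. That share is too low for these counts to tell cell types apart. An H3K4me3 replicate 1 region lay within 1000 bp of a start of 4 of 4 germ cell, 3 of 4 Sertoli, 0 of 4 Leydig and 1 of 2 endothelial markers. By that rule 71.9% of all protein-coding genes had one. By the promoter class used for TAF4b, H3K4me3 replicate 1 held 2 of 4 germ cell and 3 of 4 Sertoli markers, beside 44% of all protein-coding genes. H3K4me3 thus did not set germ cell markers apart from Sertoli markers. The Sertoli genes marked were Sox9, Wt1 and Gata4. In H3K4me3 replicate 2 a region lay within 1000 bp of a start of Wt1 and of 0 of 4 germ cell markers, beside 7.3% of all protein-coding genes. The part of other cells in these lists was not tested.

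TAF4b was found at the promoters of most of the Polycomb genes in replicate 1. A promoter peak is one whose deposited class is promoter-TSS for a transcript of the gene, where TSS is the transcription start site. In replicate 1, 7 of the 10 genes had one (Ezh2, Suz12, Eed, Jarid2, Mtf2, Rnf2 and Bmi1), where 22.7% of all protein-coding genes did. In replicate 2, 1 of the 10 had one (Rnf2), where 3.14% of all protein-coding genes did. Among protein-coding genes with an H3K4me3 replicate 1 region within 1000 bp of a start, 30.9% had a promoter peak of TAF4b replicate 1, and 6 of the 9 Polycomb genes with such a region did. Among genes without such a region 1.72% had one, and Eed, the single Polycomb gene without, did. The genes without a TAF4b peak were Ezh1, Ring1 and Cbx2. The same 7 genes were counted in replicate 1 within 1000 bp of the nearest TSS (23.8% of all protein-coding genes), within 1000 bp of any annotated start by coordinates (29%) and by any row (28.9%). Rnf2 was likewise the 1 gene counted in replicate 2 by these rules, where 3.2%, 4.13% and 3.82% of all genes were. The count depends on the length of the list: with the highest-scoring intervals of replicate 1 taken in the number that replicate 2 holds, 1 of the 10 genes (Mtf2) had a promoter peak, beside 3.35% of all protein-coding genes, and in the higher-scoring 50% of replicate 1, 6 did, beside 14.4%. Counted by complex over the whole list, 5 of 6 PRC2 genes and 2 of 4 PRC1 genes had a peak in replicate 1.

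**Figure D1:**
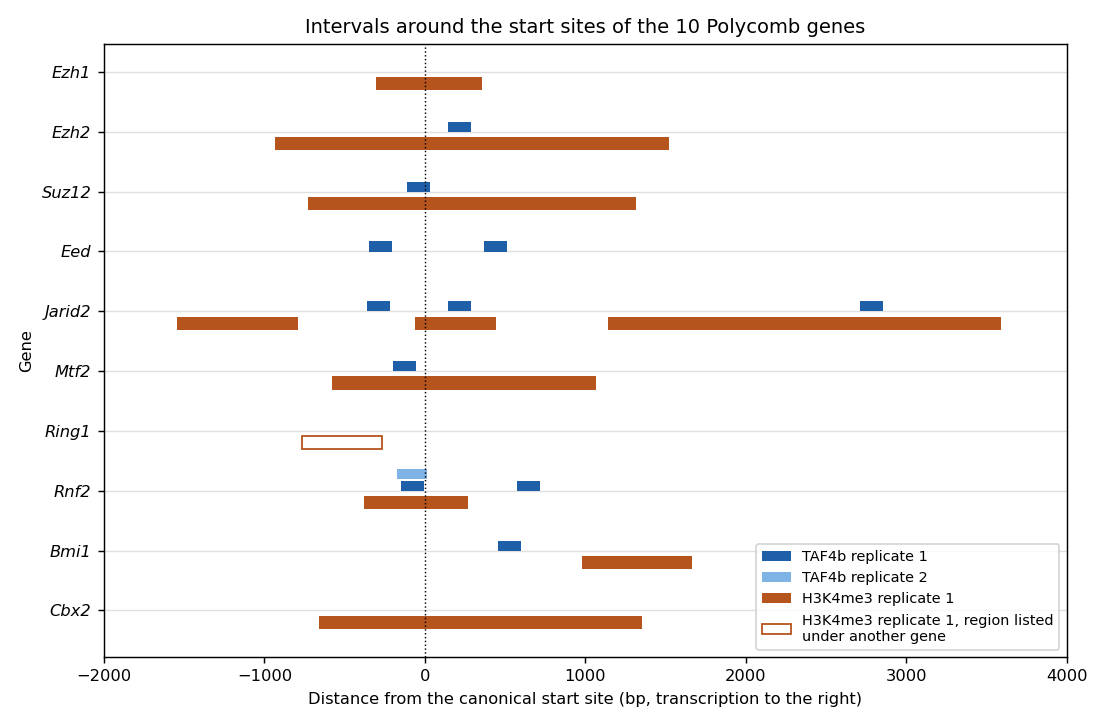
Intervals of 3 lists around the canonical start site of each of the 10 genes, as distance in bp with transcription to the right; blue bars are TAF4b peaks (light blue for replicate 2), brown bars are H3K4me3 replicate 1 regions, and the open bar at Ring1 is a region listed under a neighbouring gene. H3K4me3 replicate 2 has no interval here. Eed has 2 TAF4b peaks and no H3K4me3 region, Ezh1, Ring1 and Cbx2 have no TAF4b peak, and Rnf2 alone has peaks in both TAF4b lists.

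Of the TAF4b replicate 1 promoter peaks of these genes, 4 reach outside annotated exons. Those stretches are printed to show the DNA under the peak found in both replicates (Rnf2), the highest-ranked peak (Mtf2), a peak at a PRC2 core gene (Suz12) and the peak inside the widest H3K4me3 region of Jarid2. Each was read from GRCm39 in the direction of the gene, 5′ to 3′. Capitals mark matches, on either strand, to any of 10 short consensus sequences: GGGCGG (the GC box of SP and KLF factors), CCAAT (NFY), CCGGAAG (ETS), GCATGCG (NRF1), GCGGGAA (E2F), AAGATGG (YY1), TGACGT (CRE), CACGTG (E box), ACTACAA (GFY) and TATAAA (TBP).
Rnf2, chr1:151376730-151376869, minus strand: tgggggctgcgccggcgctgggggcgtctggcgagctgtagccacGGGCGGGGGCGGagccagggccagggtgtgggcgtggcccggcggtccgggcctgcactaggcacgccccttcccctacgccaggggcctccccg
Mtf2, chr5:108213412-108213539, plus strand: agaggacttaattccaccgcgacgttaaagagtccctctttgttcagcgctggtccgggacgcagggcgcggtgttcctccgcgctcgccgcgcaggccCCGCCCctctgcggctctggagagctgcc
Suz12, chr11:79883787-79883890, plus strand: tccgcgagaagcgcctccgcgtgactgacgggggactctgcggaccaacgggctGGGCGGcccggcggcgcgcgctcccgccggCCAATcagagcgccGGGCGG
Jarid2, chr13:44887211-44887353, plus strand: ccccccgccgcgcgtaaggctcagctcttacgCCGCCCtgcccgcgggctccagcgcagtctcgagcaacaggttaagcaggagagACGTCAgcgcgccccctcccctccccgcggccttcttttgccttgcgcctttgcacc
All 4 stretches hold the GC box letters, on either strand, and only the Suz12 stretch also holds CCAAT. The Jarid2 stretch holds the CRE letters on the minus strand.

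Over the 10 promoter peaks of these genes in TAF4b replicate 1, 143 bases each, 5 held GGGCGG, where 56.9% of all 5756 promoter peaks of that list did. The CCAAT letters were in 3 of the 10 (Ezh2, Suz12 and a Jarid2 peak), where 37.9% of all did. The NRF1, YY1, CRE, GFY and TATAAA letters were each in 1 of the 10, where 4.97%, 2.87%, 11.8%, 4.03% and 1.74% of all did, and the last 3 were in Jarid2 peaks. The ETS, E2F and E box letters were in 0 of the 10, where 13.6%, 4.92% and 7.24% of all promoter peaks held them. Median GC content was 66.4% in the 10 peaks and 64.3% over all promoter peaks, and the median number of CpG pairs was 16 against 12. These shares were not tested against each other.

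Positions below are given from the canonical start in GENCODE M39, and deposited distances from the starts of the authors' annotation, which can differ for 1 transcript. For the canonical transcript the starts were 302.5 bp apart at Ezh2, 251 bp at Jarid2, 36 bp at Suz12, 26 bp at Eed, up to 15 bp at Rnf2 and at most 0.5 bp at Cbx2. No row of Ezh1, Mtf2, Ring1 or Bmi1 names the canonical transcript. Whether a peak near a start lies before or after it therefore depends on the annotation.

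The core of PRC2 had peaks at Ezh2, Suz12 and Eed. Ezh2 encodes the main methyltransferase of dividing cells. Its TAF4b replicate 1 peak (chromosome 6, 47571979 to 47572121) had a score of 20.3 and rank 2247. Its deposited distance was -58 bp from the nearest transcript start, where a negative distance is upstream. Its centre was at 217 bp from the canonical start of GENCODE M39, but at -85.5 bp from the start that the deposited distances imply for the same transcript. It lay whole inside an H3K4me3 replicate 1 region of 2459 bp (47570743 to 47573202) with a score of 184.8 and rank 1084, the top 1.67% of that list. That region was the best-ranked H3K4me3 region among the 10 genes, and its edges were at -935 and 1524 bp from the canonical start. No interval of either replicate 2 list was assigned to Ezh2.

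Suz12 encodes the scaffold subunit of PRC2. Its TAF4b replicate 1 peak (chromosome 11, 79883787 to 79883929) had a score of 21.8 and rank 1901, and lay between -109 and 33 bp of the canonical start. Its deposited distance, from the same transcript, was -74 bp, so that the peak reaches past the start only in the newer annotation. An H3K4me3 replicate 1 region of 2044 bp, with a score of 86.5 and rank 12906, covered the peak and the start. The deposited class of that region was exon, at a distance of 256 bp, so that a count of promoter classes misses it.

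Eed encodes the subunit that binds methylated lysine 27 and stimulates the enzyme. It carried 2 TAF4b promoter peaks in replicate 1, on chromosome 7 at 89629705 to 89629847 (score 17.4, rank 3016) and at 89630424 to 89630566 (score 8.44, rank 6986). The first lay 441 bp downstream of the canonical start and 9 bp upstream of another Eed transcript by its deposited distance, and the second was at -278 bp from the canonical start. A long noncoding RNA gene on the opposite strand, E230029C05Rik, has 11 annotated starts between -334 and 354 bp of the canonical Eed start, so both peaks can be assigned to either gene. No H3K4me3 region of replicate 1 lay near Eed: the nearest was 36515 bp from the canonical start, and the nearest of replicate 2 was 576103 bp away. Of the 4943 protein-coding genes with a TAF4b replicate 1 promoter peak, 105 (2.12%) had no H3K4me3 replicate 1 region within 1000 bp of a start, and Eed was the only one of the 7 Polycomb genes among them.

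Ezh1, the paralog of Ezh2 that is typical of resting cells, had no TAF4b row. The nearest TAF4b replicate 1 peak was 20228 bp upstream, at the promoter of Ramp2, and the nearest replicate 2 peak was 286809 bp away. An H3K4me3 replicate 1 region of 659 bp covered the Ezh1 start (chromosome 11, 101116959 to 101117618) with a score of 32.8 and rank 43363, in the top 66.8% of its list. The paralogs thus differed in both lists of replicate 1: Ezh2 had a TAF4b peak and a region of rank 1084, and Ezh1 had no peak and a region of rank 43363. Each is a single gene in a single library, and the difference was not tested.

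The accessory subunits of PRC2 held the highest TAF4b rank and the largest number of peaks among the 10 genes. The peak of Mtf2, whose protein binds unmethylated CpG-rich DNA, (chromosome 5, 108213412 to 108213554) had a score of 30.3 and rank 706, the top 8.98% of TAF4b replicate 1. It lay between -196 and -54 bp of the canonical start, inside an H3K4me3 replicate 1 region of 1650 bp with a score of 73.0 and rank 17733 that was classed as intron. The Mtf2 peak was not found in TAF4b replicate 2. Of the replicate 1 promoter peaks of rank 1 to 1000, 39.7% overlapped a replicate 2 peak.

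Jarid2 encodes a subunit that links PRC2 to chromatin and lacks the demethylase activity of its relatives. It carried 3 TAF4b promoter peaks in replicate 1. Of the 7 Polycomb genes with a promoter peak, Eed and Jarid2 had 2 or more, as did 5.89% of all protein-coding genes with one, and 10 of the 4943 protein-coding genes with a promoter peak (0.202%) had 3 or more. The peaks lay on chromosome 13 at 44884134 to 44884276 (score 20.8, rank 2102), 44884639 to 44884781 (score 14.4, rank 4007) and 44887211 to 44887353 (score 11.4, rank 5293). Their centres were at -291, 214 and 2786 bp from the canonical start, and their deposited distances were -45, -37 and -234 bp, each from a different Jarid2 transcript. The peak at 214 bp and at -37 bp is measured from the same transcript, the canonical one, whose start differs by 251 bp between the annotations. The gene has 18 annotated start sites.

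H3K4me3 at Jarid2 was likewise in several pieces. Of its 7 rows in replicate 1, 3 were promoter regions: 756 bp (44882948 to 44883704, score 74.5, rank 16972), 500 bp (44884437 to 44884937, score 41.7, rank 35318) and 2447 bp (44885639 to 44888086, score 98.4, rank 9715). The region of 756 bp covers the start of Gm60383, a long noncoding RNA gene on the opposite strand at -919 bp from the Jarid2 start, and can be assigned to either gene. As many as 7 rows were found for 4.63% of the 17050 protein-coding genes with a row in that list. The first TAF4b peak fell in the gap between the regions of 756 and 500 bp, 429 bp from one and 160 bp from the other, and the other 2 peaks lay whole inside the regions of 500 and 2447 bp. The 4 remaining Jarid2 rows were distal: intergenic regions at deposited distances of -49989 and -13026 bp, and intronic regions 6324 and 29292 bp downstream of the nearest transcript start.

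Among the PRC1 genes Rnf2, the more widely used ubiquitin ligase, was the gene found in both TAF4b replicates. Its replicate 1 peak (chromosome 1, 151376727 to 151376869) had a score of 19.4 and rank 2480, and its replicate 2 peak (151376705 to 151376893) had a score of 44.5 and rank 729 of 848. The deposited distances were -92 and -93 bp, so the 2 centres agreed within 1 bp, and the replicate 1 peak lay whole inside the replicate 2 peak. Over all TAF4b replicate 1 promoter peaks, 10.6% overlapped a replicate 2 peak, and among those of rank 2001 to 3000, which include the Rnf2 peak, 5.53% did. Over the 10 promoter peaks of the Polycomb genes the count was 1, near that background. The GC content of the Rnf2 peak was 80.4%, the highest of the 10, and its printed stretch holds 2 adjoining GC boxes.

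Both Rnf2 promoter peaks lay inside an H3K4me3 replicate 1 region of 649 bp (151376450 to 151377099) with a score of 44.7 and rank 33107. A further TAF4b replicate 1 row with Rnf2 as nearest gene (151376004 to 151376146, score 7.94, rank 7270) was classed as the promoter of Gm36527 and had a deposited distance of 470 bp. It lay 303 bp from that H3K4me3 region and shared no base with it.

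Ring1, the paralog of Rnf2, had no row in any list. The nearest TAF4b replicate 1 peak was 6981 bp upstream of its start, at the promoter of Rxrb and Slc39a7. An H3K4me3 replicate 1 region (chromosome 17, 34243919 to 34244419, score 31.3, rank 45513) lay 265 bp upstream of the Ring1 start, but was listed under the microRNA gene Mir219a-1, whose start is 412 bp upstream of that of Ring1. Mir219c and Gm26940 also start within 1000 bp, so that this region can be assigned to any of these genes. As with Ezh1 and Ezh2, 1 paralog of the pair had a TAF4b peak and the other had none.

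Bmi1 encodes the PCGF subunit of canonical PRC1 and is known for maintaining stem cells. Its TAF4b replicate 1 peak (chromosome 2, 18682094 to 18682236) had a score of 7.94 and rank 7270, the lowest of the promoter peaks of these genes, and was the only one whose deposited distance was downstream, at 74 bp. Its centre was 526 bp downstream of the canonical start. An H3K4me3 replicate 1 region of 681 bp (18682620 to 18683301, score 35.8, rank 40487), classed as intron, began 383 bp beyond the peak and did not overlap it.

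Cbx2, whose protein compacts chromatin and is known for a role in gonad development, had no TAF4b row. Its start was covered by an H3K4me3 replicate 1 region of 2012 bp (chromosome 11, 118913130 to 118915142) with a score of 137.1 and rank 3711, the top 5.72% of the list and the second best of the 10 genes. That region also covers the start of Gm35829, a long noncoding RNA gene on the opposite strand at 570 bp from the Cbx2 start. A second region with Cbx2 as nearest gene (118897912 to 118899443, score 119.2, rank 5799) was intergenic, with a deposited distance of -15111 bp.

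**Figure D2:**
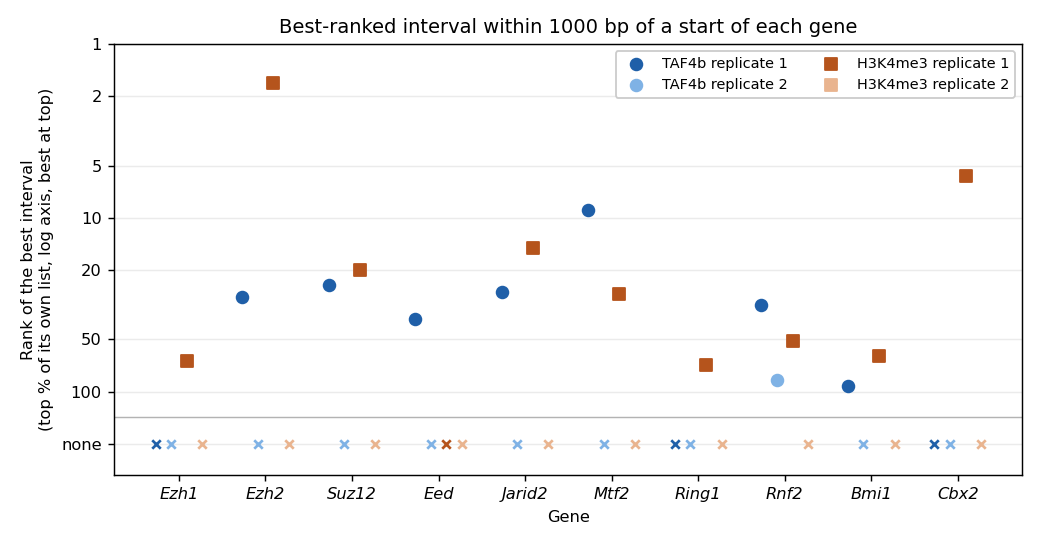
Rank of the best interval within 1000 bp of any annotated start of each gene, as the top percent of its own list on a log axis with the best ranks at the top; circles are TAF4b, squares are H3K4me3, and crosses mark lists with no interval. Mtf2 has the best TAF4b rank (top 8.98%), Ezh2 the best H3K4me3 rank (top 1.67%), and all 10 crosses for H3K4me3 replicate 2 are in the row for none.

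H3K4me3 in replicate 1 was counted over the 10 genes by each rule. By the promoter-TSS class, 5 of the 10 genes had a region (Ezh1, Ezh2, Jarid2, Rnf2 and Cbx2), where 44% of all protein-coding genes did. That class depends on where the centre of a region falls. By coordinates, with a region within 1000 bp of any annotated start, 9 of the 10 genes had one, all but Eed, where 71.9% of all protein-coding genes did. Within 1000 bp of the nearest TSS by the deposited distance, and by any row, 8 of the 10 were counted, where 61.9% and 78.3% of all genes were. In replicate 2 the counts were 0 of 10 by each of these rules, where 4.13% of genes had one by class, 5.89% by deposited distance, 7.3% by coordinates and 7.46% by any row. The best region of the 9 genes had a median rank in the top 27.3% of the list, against the top 17.2% over the 15663 protein-coding genes with a region. The ranks were spread widely: the best region of Ezh2 ranked above 93.5% of those genes, that of Cbx2 above 79.4% and that of Jarid2 above 54.6%, while those of Rnf2, Bmi1, Ezh1 and Ring1 ranked above 13.7%, 8.27%, 6.57% and 5.89%.

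Region widths fell at both ends of the range. The widest region within 1000 bp of a start had a median width of 1650 bp over the 9 genes and 1414 bp over all genes with a region. Ezh2 (2459 bp), Jarid2 (2447 bp), Suz12 (2044 bp) and Cbx2 (2012 bp) were wider than 91.9%, 91.6%, 82.0% and 81.0% of genes. Bmi1 (681 bp), Ezh1 (659 bp), Rnf2 (649 bp) and Ring1 (500 bp) were at the other end, wider than 12%, 11.1%, 10.4% and 0% of genes, 500 bp being the narrowest width in the list. Mtf2 (1650 bp) lay between them.

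**Figure D3:**
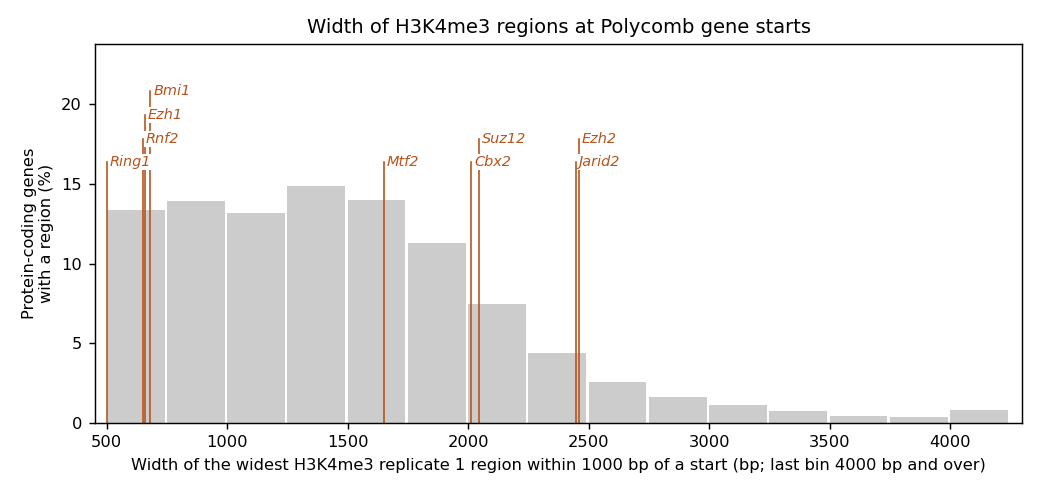
Grey bars give the percent of protein-coding genes with an H3K4me3 replicate 1 region near a start, by the width of the widest such region in bp (bins of 250 bp), and labelled brown lines mark the 9 Polycomb genes with a region. The lines of 4 genes lie from 500 to 681 bp and those of the other 5 from 1650 to 2459 bp.

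TAF4b peaks and H3K4me3 regions of replicate 1 were then compared base by base. Of the 10 TAF4b promoter peaks of these genes, 6 overlapped an H3K4me3 replicate 1 region, all 6 over their whole length, where 86.3% of all TAF4b replicate 1 promoter peaks overlapped one. The 4 peaks that did not were both Eed peaks, the first Jarid2 peak and the Bmi1 peak. By gene, 5 of 7 had an overlapping peak, where 87.4% of all 4943 protein-coding genes with a promoter peak did. In replicate 2 the single peak, at Rnf2, overlapped no H3K4me3 replicate 2 region, where 13% of the 748 promoter peaks of that list overlapped one. Of the 10 peaks, 9 had an upstream deposited distance, with a median of -57.5 bp, against a median of -51 bp and 80.8% upstream over all promoter peaks. Their median rank was in the top 35.0% of the list, against the top 40.2% for all promoter peaks. The focus ratio, a deposited fraction for each TAF4b peak, ran from 0.603 at Suz12 to 0.706 at a Jarid2 peak, around the median of 0.64 for all promoter peaks.

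The DNA before the start sites was compared over all 10 genes, with or without a peak. In the 143 bases before the canonical start of GENCODE M39, GGGCGG was found at 7 of the 10 genes (Ezh2, Suz12, Mtf2, Ring1, Rnf2, Bmi1 and Cbx2), where 32.2% of 21757 protein-coding genes had it. The CCAAT letters were at 1 of the 10 (Suz12), where 26.9% of all genes had them, and the E2F letters at 2 (Ezh2 and Mtf2), where 3.19% did. The NRF1, CRE and E box letters were each at 1 gene (Jarid2, Ring1 and Bmi1), where 2.49%, 4.99% and 4.34% of all genes had them. The ETS, YY1, GFY and TATAAA letters were at 0, where 5.44%, 2.20%, 2.12% and 7.03% did. Ring1 and Cbx2 had the GC box letters and no TAF4b peak, and Eed and Jarid2 had peaks without these letters in this window. The window is not the peak: the Eed peak at 441 bp and the Jarid2 peak at 2786 bp themselves held the letters. The Ezh2 and Bmi1 peaks, at 217 and 526 bp, lacked them although the windows of these genes had them. GC content in the window was 53.8% at Eed and 55.9% at Ezh1, with a median of 55.9% over all genes. At every other member it was higher, from 69.2% at Jarid2 to 80.4% at Rnf2, above 85.6% to 98.3% of all genes. The letter counts were not compared with those of genes of like GC content. A match is a description of the letters and does not show that a factor was bound.

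The difference between antibodies was tested over libraries. The number of the 10 genes with a promoter interval was 7 and 1 for TAF4b, a mean of 4 ± 4.24 (SD, n = 2), and 5 and 0 for H3K4me3, a mean of 2.5 ± 3.54 (SD, n = 2). The difference of 1.5 genes had a two-sided exact permutation p of 0.667, and 2 libraries against 2 cannot give a p below 0.333. Counted by coordinates the numbers were 7 and 1 against 9 and 0, a difference of -0.5 in the other direction (exact permutation p of 1). The replicates of 1 antibody thus differed by more than the antibodies did.

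A list of 47 other Polycomb genes was counted in the same way. It holds further PRC2 and PRC1 subunits, partners of variant PRC1, the PR-DUB complex that removes ubiquitin from histone H2A, and enzymes that oppose Polycomb marks. In TAF4b replicate 1, 25 of the 47 (53.2%) had a promoter peak, and in replicate 2, 4 did (8.51%), beside the 22.7% and 3.14% of all protein-coding genes. In the higher-scoring 50% of replicate 1 the count was 11 of 47, beside 14.4% of all genes, and with as many intervals as replicate 2 holds it was 2 of 47, beside 3.35%. H3K4me3 replicate 1 regions lay within 1000 bp of a start of 45 of the 47 (95.7%, beside 71.9% of all protein-coding genes), and 24 of these 45 (53.3%) had a TAF4b promoter peak, where 30.9% of all genes with such a region did. The median rank of the best TAF4b promoter peak over the 25 genes was the top 55.8% of the list, against the top 36.4% over the 4943 protein-coding genes with a promoter peak, taken the same way.

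**Figure D4:**
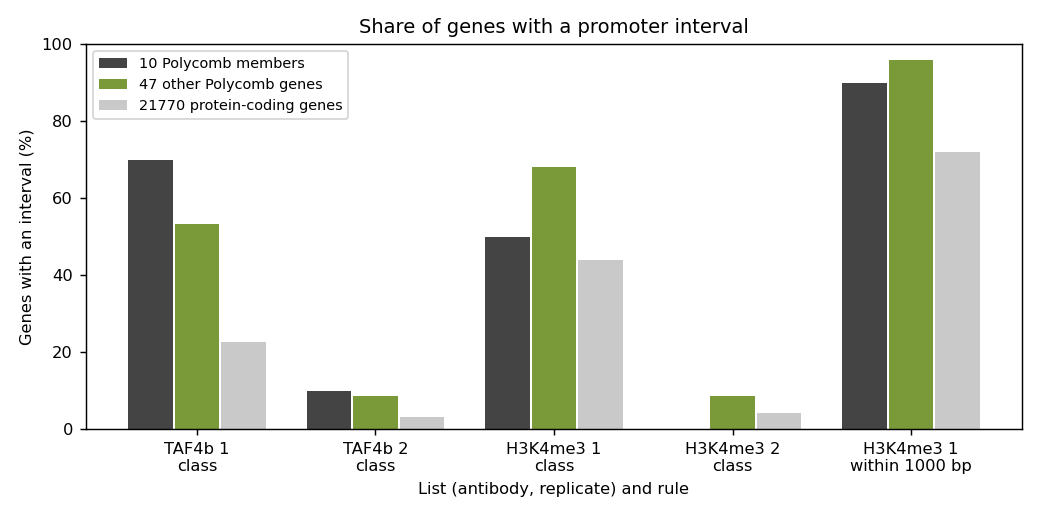
Percent of genes with a promoter interval in each list, for the 10 Polycomb members, 47 other Polycomb genes and all 21770 protein-coding genes; the first 4 groups of bars use the promoter-TSS class and the last uses distance by coordinates. Both Polycomb lists lie above all genes in TAF4b replicate 1 (7 of 10 and 53.2% against 22.7%), and no bar for the 10 members appears in H3K4me3 replicate 2.

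By subgroup, TAF4b replicate 1 promoter peaks were at 5 of 8 PRC2 and accessory genes, 4 of 14 PRC1 core paralogs, 7 of 13 variant PRC1 partners, 5 of 7 PR-DUB genes and 4 of 5 opposing enzymes, beside 22.7% of all protein-coding genes. The count for the PRC1 core paralogs was near that share.

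The genes of this list with a TAF4b promoter peak in replicate 2 were Max, Mga, Fbrsl1 and Kdm6a. MAX and MGA form the DNA-binding pair of the variant PRC1 that silences germ cell genes in other cells. Max had the highest TAF4b replicate 1 score of the 47, 35.2 (rank 368), with a replicate 2 score of 64.8 (rank 327) and deposited distances of -215 and -198 bp. Mga had a replicate 1 score of 21.8 (rank 1901) and a replicate 2 score of 48.6 (rank 635). Kdm6a, an X-linked demethylase of lysine 27, had ranks 2480 and 729, the same ranks as Rnf2. Fbrsl1 had a peak in replicate 2 only (score 60.7, rank 382), as did 13.0% of the 683 protein-coding genes with a replicate 2 promoter peak, counted as no replicate 1 peak within 1000 bp of a start.

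The next highest TAF4b replicate 1 scores were 29.3 at L3mbtl2 (rank 798), 28.8 at Fbrs (rank 854), 27.3 at Pcgf3 (rank 1001) and 21.8 at both Phf19 and Mga. H3K4me3 replicate 2, which held none of the 10 genes, had promoter regions at Phf19 (score 166.8, rank 146), Fbrsl1 (score 126.3, rank 523), Max (score 111.2, rank 816) and Pcgf1 (score 101.1, rank 1165). These are 8.51% of the 47 genes, beside 4.13% of all protein-coding genes. At such shares, none of 10 genes cannot be told from the background. Phf19 encodes a relative of MTF2. No promoter-TSS interval in any list was found for Rbbp4, Rbbp7, Phc3, E2f6 and Asxl2, but by coordinates only E2f6, which encodes the E2F factor of variant PRC1, had no interval within 1000 bp of a start. Pcgf6, a partner of E2F6, MGA and MAX, had a TAF4b peak (score 14.9, rank 3805) and no H3K4me3 region within 1000 bp of a start, as did Eed.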

How the data were processed

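CUT&RUN lists of 4 libraries (TAF4b and H3K4me3, 2 replicates each, grouped by sample title) were used. Per the submitters' processing notes, the authors used bcl2fastq 2.20, Trim Galore 0.5.0, FastQC 0.11.5, Bowtie2 2.3.0, SAMtools 1.9 and HOMER 4.10 with GRCm39. The H3K4me3 lists were annotated with Ensembl 103, per the file headers, and the TAF4b lists name no build in theirs. The peak caller's settings are not given in the sources used here. The deposited peak score has no stated scaling and was used as a rank within 1 list. The deposited focus ratio of TAF4b peaks is a fraction. Distance and class were used as deposited.

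Transcript identifiers were matched to GENCODE M39 (98.6% to 99.2% of nearest transcripts matched), and the start of each gene's Ensembl canonical transcript served as reference. Overlap needed 1 shared bp. Genes were counted by the promoter-TSS class, and alternatively within 1000 bp of a start. Counts stand beside the share of all protein-coding genes, without set tests. Libraries were compared by an exact permutation test. Counting and overlap code was tested on simulated lists and returned every planted gene. Python 3.11.15, pandas 2.3.3 and pysam 0.24.0 were used.

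The members, lists and consensus sequences were chosen with earlier results of these data known. All 10 members are named, and of the 47 other genes those with a replicate 2 promoter interval, the 5 highest TAF4b replicate 1 scores (with ties) and those with no promoter interval, besides genes whose start shares a member's interval. Other genes were named after their values were seen. Some results are not reported here because they name items withheld for evaluation.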

Additional observations from a re-analysis of the deposited data

How the results depend on the processing

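Of 44 alternative values, 23 kept their direction or stayed within 1.5 times the reported count, 18 moved and 3 lost or turned their direction. The excess of TAF4b over H3K4me3 in the number of the 10 genes with a promoter interval (1.5) was 0 within 1000 bp of the nearest TSS, 0 with any row and -0.5 by coordinates, since 3 to 4 more genes then had an H3K4me3 replicate 1 region and the TAF4b counts were the same. With the replicate block it was 1.5, from differences of 2 and 1 (exact sign-flip p of 0.5, the smallest 2 pairs allow), and leaving out 1 replicate gave 1 to 2. Whether replicates with the same number come from the same cells is not stated.

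The excess was 0.5 with equal numbers of intervals and 1.5 in the higher-scoring 50%. With as many of the highest-scoring intervals as replicate 2 holds, TAF4b replicate 1 held 1 of the 10 genes (from 7, beside 3.35% of all protein-coding genes) and H3K4me3 replicate 1 held 1 (from 5, beside 3.45%), and the 47 other genes gave 2 (from 25) and 3 (from 32). In the higher-scoring 50%, TAF4b replicate 1 held 6 of the 10 genes (beside 14.4% of all), the TAF4b replicate 2 count fell to 0 (from 1, beside 1.58%), the H3K4me3 replicate 1 count to 3 (beside 35.7%), and the 47 genes gave 11 in TAF4b replicate 1, 2 in TAF4b replicate 2, 24 in H3K4me3 replicate 1 and 2 in H3K4me3 replicate 2 (beside 2.12% of all). These settings test fewer intervals. The H3K4me3 replicate 1 count was 8 within 1000 bp, 8 with any row and 9 by coordinates. With the other replicate's H3K4me3 list, genes with an overlapping TAF4b peak were 0 in replicate 1 (from 5, beside 8.56% of all genes with a promoter peak) and 1 in replicate 2 (from 0, beside 91.8%). Over the 32462 genes named in any list, the background shares were 16.6%, 2.28%, 38.1% and 3.16% in place of 22.7%, 3.14%, 44% and 4.13%. The equal-number setting leaves the replicate 2 lists as they are. With unknown depth, a gene missing from a list is not shown to lack the signal.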

Other observations

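Cbx2 has Cbx8, which encodes another CBX subunit of PRC1, as a neighbour on chromosome 11. The best-ranked H3K4me3 replicate 1 region with Cbx8 as nearest gene (118943542 to 118945967, 2425 bp, score 201.2, rank 743) was intergenic, with a deposited distance of -12959 bp. A TAF4b replicate 2 peak (118944183 to 118944371, score 52.6, rank 539) lay inside it, without a TAF4b replicate 1 peak there. TAF4b replicate 1 held a peak at the Cbx8 promoter (118931847 to 118931989, score 20.3, rank 2247), inside a region of 2439 bp with a score of 156.5 and rank 2291. This locus was chosen after its values were seen.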
